A study of Homo sapiens with 90 samples.

Results

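The insulin-like growth factors and their binding proteins were followed as a set of 10 genes, chosen by symbol from a count table of 28307 genes. They are the growth factors IGF1 and IGF2, the binding proteins IGFBP1 to IGFBP7, and IGFALS, which encodes the acid-labile subunit of the circulating growth factor complex. All 10 symbols were in the table, 8 had enough counts to be tested, and IGF2 and IGFALS did not. The cells were HepaRG, a human hepatic progenitor line that can mature in culture into cells like hepatocytes and cells like bile duct epithelium. Transcripts were measured by BRB-seq, which tags the RNA of each sample with a barcode and counts transcript ends in bulk.

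Each of the 15 conditions held parental cells (labelled wt) and a line carrying CYP2D6, a drug-metabolising enzyme, from a stably integrated lentivirus, with 3 replicate libraries per genotype. The labels do not say whether the transduced line is a single clone, or whether replicates a, b and c were separate cultures, so p-values may measure technical spread only. Progenitors were sampled at days 0, 2, 4, 7 and 14 without DMSO. Freshly differentiated and thawed cells were each sampled at day 30 without DMSO, at day 32 without and with DMSO, and at days 37 and 44 with DMSO. By the growth and treatment protocols all cells shared a medium with 5 µg/ml insulin and hydrocortisone hemisuccinate, and differentiation used 1.7% DMSO over 2 weeks, so cells labelled day 30 without DMSO came after that exposure.

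IGF1 and IGF2 act through the receptor IGF1R, and most of either hormone in tissue fluid is held by a binding protein that controls how much reaches the receptor. The liver is the main source of circulating IGF1, whose transcription there follows growth hormone, and hepatocytes also secrete IGFBP1, IGFBP2 and IGFBP4. IGFBP1 is the rapidly regulated member: insulin represses its transcription through the factor FOXO1, while fasting, glucocorticoids and stress raise it.

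The 87 libraries used held 723391 to 3882866 counts, with a median of 1935150, and 3 nearly empty parental libraries (progenitor day 2, progenitor day 14 and fresh day 30, replicate c of each) were left out. CYP2D6, the transduced gene, had counts in all 15 transduced libraries of each status at 2.22 to 26.3 CPM (counts of a gene scaled for library size with TMM factors), and parental libraries held 0 to 3.74 CPM. All 8 hepatocyte markers were detected in every condition, whereas EPCAM, an epithelial marker, had no count in any and the endothelial markers CDH5, VWF and LYVE1 had none in several. Other markers of those lists were present. By status, mean CPM ran from 215 to 247 for KRT19, 110 to 199 for CD24 and 31.9 to 63.1 for SPP1. SOX9 ran from 6.61 to 8.08 and KRT7 from 1.94 to 3.08. Of the endothelial markers, KDR ran from 12.1 to 17.9, PECAM1 from 1.11 to 1.31 and STAB2 from 0.242 to 0.346. Of the 87 libraries, 61 resembled libraries of their own condition most closely, 26 another condition and 19 of these another status. At day 30 both parental fresh libraries lay closest to thawed cells, and transduced thawed replicates b and c lay closest to fresh cells. Comparisons that rest on these 4 libraries are also given without them, in transduced cells alone where fresh day 30 enters, a choice made after seeing the data. At thawed day 32 with DMSO, transduced replicates b and c lay closest to thawed day 32 without DMSO, by a small margin (r at most 0.947 to either). Parental replicates a and c there, and parental replicate a of thawed day 32 without DMSO, lay closest to fresh cells. The DMSO and day 44 comparisons of thawed cells rest on such libraries, which were not left out as a set. Parental progenitor day 14 replicate a, the deepest library, and replicate c of thawed day 30 in both genotypes stood apart for IGFBP1, and results that rest on them are given with and without them. In bulk RNA, fewer cells of a type and less RNA per cell cannot be told apart.

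All 8 tested members differed among the 15 conditions, where 65.3% of the 12532 genes tested were called, a call being an adjusted p under 0.05 (edgeR quasi-likelihood test, Benjamini-Hochberg over all genes tested). Adjusted p ran from 1.71e-37 for IGFBP7 to 0.000905 for IGFBP5. The depth differed greatly between members: IGFBP4 had 18678 counts over the 87 libraries, IGFBP2 5891, IGFBP7 4647, IGFBP1 2017, IGF1 953, IGFBP3 769, IGFBP6 715 and IGFBP5 269. For IGFBP5 and IGFBP6 a library often held a few counts or none, so only large differences were detectable. When the 15 conditions were put in order by mean CPM, the ranges of neighbouring conditions overlapped for every tested member.

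In GRCh38.p14, 4 of the binding protein genes form 2 neighbouring pairs. IGFBP1 (chr7:45888488-45893660, plus strand) lies beside IGFBP3 (chr7:45912245-45921272, minus strand), and the condition means of this pair had a Pearson r of −0.00875. IGFBP2 (chr2:216632828-216664436, plus strand) lies beside IGFBP5 (chr2:216672105-216695549, minus strand), with r = 0.706. These are descriptions over 15 conditions that share libraries. IGFBP4 is at chr17:40443450-40457725 and IGFBP6 at chr12:53097667-53102340, both on the plus strand. IGFBP7 is at chr4:57030773-57110385, IGF1 at chr12:102395874-102481839, IGF2 at chr11:2129117-2149566 and IGFALS at chr16:1790413-1794908, all on the minus strand.

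Of the growth factors, IGF1 had its lowest condition mean in progenitors and its highest in fresh cells. Its condition means were 1.38 ± 0.646 CPM (SD, n = 5) at progenitor day 2, the lowest, 2.28 ± 1.88 (n = 6) at day 0 and 4.23 ± 2.75 (n = 5) at day 14. Means in fresh cells ran from 6.23 ± 3.53 CPM (n = 6) at day 32 with DMSO to 12.8 ± 9.66 (n = 6) at day 44, the highest of all. No step from progenitor day 0 to fresh day 30 was called for IGF1; from progenitor day 14 to fresh day 30 the log2 fold change was 0.87 ± 0.402 (SE; edgeR adjusted p = 0.113).

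Thawed cells had their lowest IGF1 at day 32 with DMSO. The 6 libraries there held 1.16 to 5.02 CPM with a median of 2.03, against 1.86 to 11.5 CPM with a median of 6.99 at day 32 without DMSO. The ranges overlapped, with the transduced replicate c of the DMSO-free cells as low as the DMSO-treated cells. The log2 fold change with DMSO was −1.54 ± 0.41 (2.92-fold lower, edgeR adjusted p = 0.00672), and without replicate a of every group the call ended (adjusted p = 0.16). By day 44 with DMSO the thawed libraries held 3.65 to 17.6 CPM with a median of 8.02, a rise of 1.96 ± 0.396 (3.89-fold, edgeR adjusted p = 8.12e-05). In fresh cells the DMSO difference of IGF1 was −0.42 ± 0.357 (adjusted p = 0.673), and the DMSO effects of thawed and fresh cells differed by −1.12 ± 0.549 (unadjusted p = 0.0438, edgeR adjusted p = 0.831).

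IGF2, the growth factor most active before birth, was close to the limit of detection. It had 58 counts in 39 of the 87 libraries and at most 2.61 CPM in any library. The highest condition was progenitor day 7, with 13 counts and 1.03 ± 0.902 CPM (SD, n = 6), and all 5 libraries of progenitor day 2 had none. IGFALS had 5 counts in all, 1 in each of 5 libraries of 5 conditions, so its level was not measurable at this depth. The counting strand is not given in the sources used here, and IGF2 shares its locus with IGF2-AS, which had 41 counts, and INS-IGF2, which had 11, so reads could be split among them.

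IGFBP1 had the widest swings of the set, as the plot of IGFBP1 by library shows. It was high in the starting cells of each series (progenitor day 0, fresh day 30 and thawed day 30) and low at nearly all other times.

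**Figure D1:**
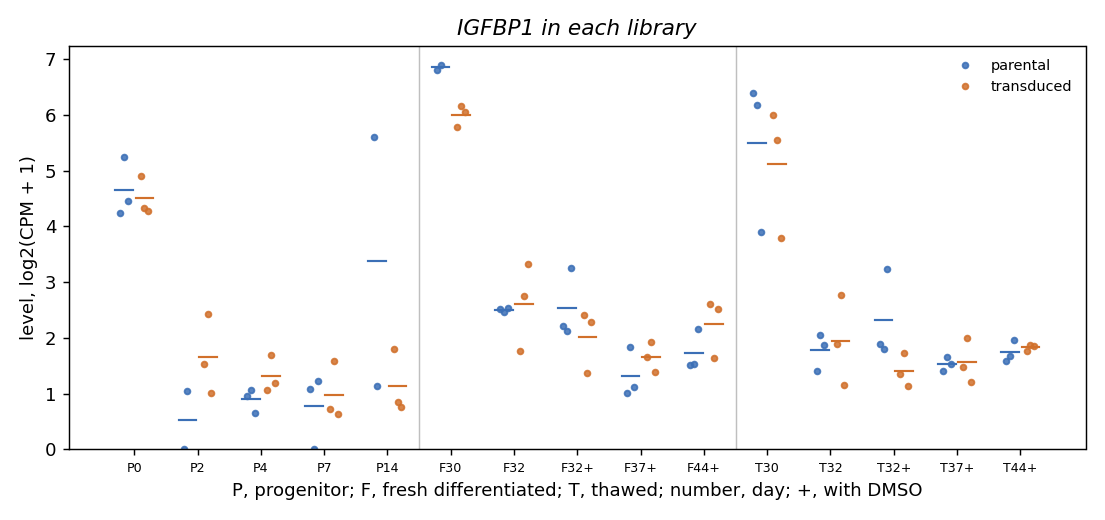
Level of IGFBP1 in each of 87 libraries, as log2(CPM + 1) on the vertical axis, for the 15 conditions on the horizontal axis (P progenitor, F fresh, T thawed, the number is the day, + with DMSO). Points are libraries and short lines are means of a genotype, blue for parental and orange for transduced. Progenitor day 0, fresh day 30 and thawed day 30 stand high, and 1 parental library stands high at progenitor day 14.

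In progenitors IGFBP1 stood at 18.0 to 37.1 CPM with a median of 20.02 at day 0 (n = 6). The 5 libraries of day 2 held 0 and 1.07 CPM in parental and 1.90, 4.37 and 1.01 CPM in transduced cells. Every day 0 library was above every day 2 library, and 14.7% of all genes tested did not overlap at this step, in either direction. The fall was −4.16 ± 0.607 on the log2 scale (17.8-fold lower, edgeR adjusted p = 8.60e-08). IGFBP1 then stayed low at days 4 and 7, with means of 1.21 ± 0.555 and 0.947 ± 0.696 CPM (SD, n = 6 each).

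At progenitor day 14 the libraries held 47.9 and 1.19 CPM in parental and 2.48, 0.806 and 0.694 CPM in transduced cells. A single library, parental replicate a, was high. The change from day 7 was called with it (log2 2.63 ± 0.767, edgeR adjusted p = 0.0207) and not without it (0.46 ± 0.752, adjusted p = 0.833). The 3 genes most like IGFBP1 over the conditions were picked with these libraries included, so their values here are not independent of IGFBP1. FOSB, an immediate-early transcription factor, was at 46.2 CPM in that library against 0.796 to 3.47 CPM in the other 4. NFKBIA was at 118 against 43.4 to 56.1 CPM, and CCNL1 was little different, at 26.1 against 20.8 to 25.2 CPM. The part of this library in other results was not tested.

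Fresh cells at day 30 held 112 and 118 CPM of IGFBP1 in parental and 54.0, 70.9 and 65.2 CPM in transduced cells. All were above every library of progenitor day 14, and 14.4% of all genes tested did not overlap at this step. The difference was 3.79 ± 0.456 on the log2 scale (13.9-fold higher, edgeR adjusted p = 1.02e-09), 5.97 without parental progenitor day 14 replicate a, and 5.44 in transduced cells without the 4 day 30 libraries (adjusted p = 1.05e-09). By day 32 without DMSO the 6 fresh libraries had 2.41 to 9.10 CPM with a median of 4.79. All were below every day 30 library, and 10.8% of all genes tested did not overlap at this step. This fall was −4.06 ± 0.41 (16.7-fold lower, edgeR adjusted p = 1.01e-11), and −3.53 in transduced cells without the 4 day 30 libraries.

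Thawed cells showed a fall of the same order. At day 30 the libraries held 83.0, 71.9 and 13.9 CPM in parental and 63.2, 46.1 and 12.8 CPM in transduced cells, so replicate c was low in both genotypes. At day 32 without DMSO they held 1.24 to 5.86 CPM with a median of 2.69. All were below every day 30 library, and 6.11% of all genes tested did not overlap at this step. The fall was −4.03 ± 0.446 (16.3-fold lower, edgeR adjusted p = 1.37e-10), −4.49 without replicate c of thawed day 30 and −4.38 without the 4 day 30 libraries. The falls of thawed and fresh cells differed by 0.04 ± 1.01 (edgeR adjusted p = 0.992). The SE as computed here is unstable for so small a value and does not give its precision, so a difference is not excluded. From day 32 to day 44 IGFBP1 stayed between means of 1.89 and 5.21 CPM in fresh and between 1.97 and 3.12 CPM in thawed cells, and neither DMSO nor time gave a call.

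At day 30 itself thawed cells had a median of 54.7 CPM and fresh cells 70.9 CPM of IGFBP1. The difference was −0.84 ± 0.34 (edgeR adjusted p = 0.0838). It was −0.40 with an adjusted p of 0.467 without replicate c of thawed day 30, and 0.04 without the 4 day 30 libraries. Other settings called it, lower in thawed cells. With parental progenitor day 14 replicate a dropped it was −0.84 (edgeR adjusted p = 0.0172). A fit to the statuses compared gave −0.88 (edgeR adjusted p = 0.0129). Dropping replicate a from all groups gave −1.33. In the replicate c libraries of thawed day 30 NFKBIA, an inhibitor of NF-kB, stood at 107 and 91.1 CPM against 175 to 265 CPM in the other 4. FOSB in them was at 22.1 and 19.7 CPM against 69.4 to 168 CPM, and CCNL1 at 38.5 and 36 CPM against 60.6 to 85.6 CPM. These genes were picked for their likeness to IGFBP1 with these libraries included, so their values are not independent of it. What set these libraries apart was not tested.

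The genes whose mean log2 CPM over the 15 conditions was most like that of IGFBP1 were NFKBIA (Pearson r = 0.922), FOSB (0.901) and CCNL1 (0.888), a cyclin of RNA processing. They were picked as the highest of 4180 genes whose mean reached 20 CPM, and all values of a condition share libraries, so these correlations are descriptions.

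IGFBP2, a binding protein abundant in liver and plasma, moved with the culture cycle of the progenitors. Its 6 libraries of day 0 held 30.5 to 43.95 CPM with a median of 40.7. The 5 libraries of day 2 held 6.39 and 12.3 CPM in parental and 9.04, 11.9 and 15.1 CPM in transduced cells. All were below every day 0 library, and 14.7% of all genes tested did not overlap at this step. The fall was −1.84 ± 0.21 (3.59-fold lower, edgeR adjusted p = 9.29e-13). At day 7 the libraries held 35.3 to 56.1 CPM with a median of 40.1, a rise of 1.97 ± 0.207 (3.93-fold, edgeR adjusted p = 1.72e-14). All were above day 2, and 20.2% of all genes tested did not overlap at this step.

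In differentiated cells the changes of IGFBP2 were smaller. Fresh cells went from 36.4 and 70.7 CPM in parental and 44.6, 47.8 and 41.8 CPM in transduced cells at day 30 to 25.6 to 37.4 CPM with a median of 33.6 at day 32 without DMSO, with a slight overlap (log2 −0.62 ± 0.178, edgeR adjusted p = 0.00711, 0.454 with replicate b of all groups left out, and 0.116 without the 4 day 30 libraries). At day 32 with DMSO the thawed libraries held 14.9 to 29.2 CPM with a median of 21.5, against a median of 33.0 CPM without DMSO. That difference was −0.54 ± 0.18 (edgeR adjusted p = 0.0448), and the call ended when any 1 replicate letter was left out of all groups (adjusted p 0.101 to 0.297) or no filter on low counts was used (0.0761). By day 44 with DMSO IGFBP2 had risen to 30.2 to 55.8 CPM with a median of 49.1 in fresh cells, with an overlap (0.80 ± 0.18, edgeR adjusted p = 0.000443, and 0.0915 without replicate c). In thawed cells it reached 32.6 to 46.1 CPM with a median of 40.2 (0.89 ± 0.178, edgeR adjusted p = 6.24e-05). All were above every day 32 library, and 5.76% of all genes tested did not overlap at this step.

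IGFBP2 followed complement genes most closely over the 15 conditions, with r = 0.965 for C4A, 0.963 for C4B_2 and 0.960 for C1R. C4A and C4B are near-identical genes, so reads could be split between them. The summed CPM of the 8 hepatocyte markers was 13160 at progenitor day 0, 2778 at day 2 and 13090 at day 7, so it was low and high at the same times as IGFBP2. The 5 proliferation markers moved the other way, with sums of 144.6, 1064 and 154.6 CPM at those days. The part of either in the changes of IGFBP2 was not tested.

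IGFBP3 and IGFBP4 had their highest means at progenitor day 2 and both fell by day 7. IGFBP3 is the main carrier of growth factor in plasma, where it forms a complex with IGFALS, and IGFBP4 is a binding protein that the protease PAPPA can cut. The 250 bases before each gene's annotated start in RefSeq (GRCh38.p14) are shown because the condition means of the 2 genes were correlated (r = 0.809). They did not move together at every step. From day 32 to day 44 with DMSO in fresh cells IGFBP4 was called higher, while IGFBP3 had means of 3.51 and 2.92 CPM. In both windows a TATA element, in capitals, lies close to the start. A link between these elements and the levels was not tested.
IGFBP3, chr7:45921273-45921522, minus strand: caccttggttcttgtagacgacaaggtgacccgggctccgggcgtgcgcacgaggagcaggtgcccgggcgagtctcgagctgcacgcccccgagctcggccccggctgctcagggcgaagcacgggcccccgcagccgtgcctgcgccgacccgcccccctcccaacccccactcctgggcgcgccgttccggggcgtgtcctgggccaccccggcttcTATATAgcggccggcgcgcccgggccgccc
IGFBP4, chr17:40443200-40443449, plus strand: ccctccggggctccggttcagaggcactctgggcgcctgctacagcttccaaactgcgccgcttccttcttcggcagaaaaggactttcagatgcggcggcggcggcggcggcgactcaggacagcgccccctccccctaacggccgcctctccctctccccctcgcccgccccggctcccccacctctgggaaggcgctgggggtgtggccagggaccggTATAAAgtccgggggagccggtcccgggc

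The element of IGFBP3 reads TATATA and begins 30 bases before the start, and that of IGFBP4 reads TATAAA and begins 29 bases before it. Searched on both strands, TATATA was in 3.73% and TATAAA in 10.7% of 35116 promoter windows of the same length, and among the 7 members with a window each was found in that 1 gene. The windows are rich in G and C, at 76.0% for IGFBP3 and 71.6% for IGFBP4. The GC box CCGCCC was in 42.6% of all windows and in those of IGFBP2, IGFBP3, IGFBP4, IGFBP6 and IGFALS. The forkhead core GTAAACA, which FOXO factors can bind, was in 2.98% of all windows and in those of IGFBP6 and IGF1. These are matches of letters and not measured binding sites.

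At progenitor day 2 IGFBP4 stood at 225 and 241 CPM in parental and 182, 222 and 148 CPM in transduced cells. At day 7 its 6 libraries held 83.4 to 114 CPM with a median of 100.5. All were below every day 2 library, and 20.2% of all genes tested did not overlap at this step. The fall was −1.04 ± 0.15 (2.06-fold lower, edgeR adjusted p = 1.26e-08). IGFBP3 held 17.8 and 15.5 CPM in parental and 6.66, 17.5 and 9.55 CPM in transduced cells at day 2. By day 7 it held 3.62 to 7.17 CPM with a median of 4.202, which overlapped with the lowest day 2 library (log2 −1.50 ± 0.36, 2.83-fold lower, edgeR adjusted p = 0.000391). From day 0 to day 2 neither gene was called, with 0.36 ± 0.15 for IGFBP4 (edgeR adjusted p = 0.0565) and 0.83 ± 0.357 for IGFBP3 (adjusted p = 0.0652).

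IGFBP4 rose again into fresh day 30, from 125 and 72.5 CPM in parental and 66.6, 79.4 and 66.6 CPM in transduced progenitors of day 14 to 146 and 161 CPM in parental and 96.1, 124 and 112 CPM in transduced cells. The ranges overlapped through the parental progenitor replicate a (log2 0.63 ± 0.162, edgeR adjusted p = 0.00169). From fresh day 30 to day 32 without DMSO it was lower by −0.48 ± 0.153 (edgeR adjusted p = 0.0186), with 81.0 to 120 CPM and a median of 87.4 at day 32. From day 32 to day 44 with DMSO it rose by 0.59 ± 0.149 in fresh (adjusted p = 0.00288) and by 0.77 ± 0.149 in thawed cells (edgeR adjusted p = 5.11e-05). The ranges overlapped in each of these. The call at fresh day 30 ended without replicate b of every group (adjusted p = 0.133), that at fresh day 32 without a or b (0.185 and 0.0869) or the 4 day 30 libraries (0.351), and the day 44 calls without replicate a (0.0742 in fresh and 0.0701 in thawed cells).

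At day 30 thawed cells were lower than fresh cells in both genes with all libraries, and neither call held without the 4 libraries closest to the other status (adjusted p = 0.861 for IGFBP4 and 0.595 for IGFBP3). For IGFBP4 the thawed libraries held 71.9 to 106 CPM with a median of 94.1 (log2 −0.50 ± 0.154, edgeR adjusted p = 0.017, and 0.0516 without replicate c of thawed day 30). For IGFBP3 they held 1.48 to 4.37 CPM with a median of 1.96, against a median of 4.85 CPM in fresh cells (−1.29 ± 0.458, edgeR adjusted p = 0.0407, 0.149 without that replicate and 0.0796 with no filter on low counts). Over the 15 conditions the mean log2 CPM of IGFBP3 and IGFBP4 had r = 0.809, the highest of the 28 pairs of tested members. Among the genes most like IGFBP4 were THBS1 (0.863), a matrix glycoprotein, and EXT1 (0.857), an enzyme of heparan sulfate synthesis. Those most like IGFBP3 were TPM4 (0.928), a tropomyosin, RCN1 (0.914) and SRSF10 (0.906).

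**Figure D2:**
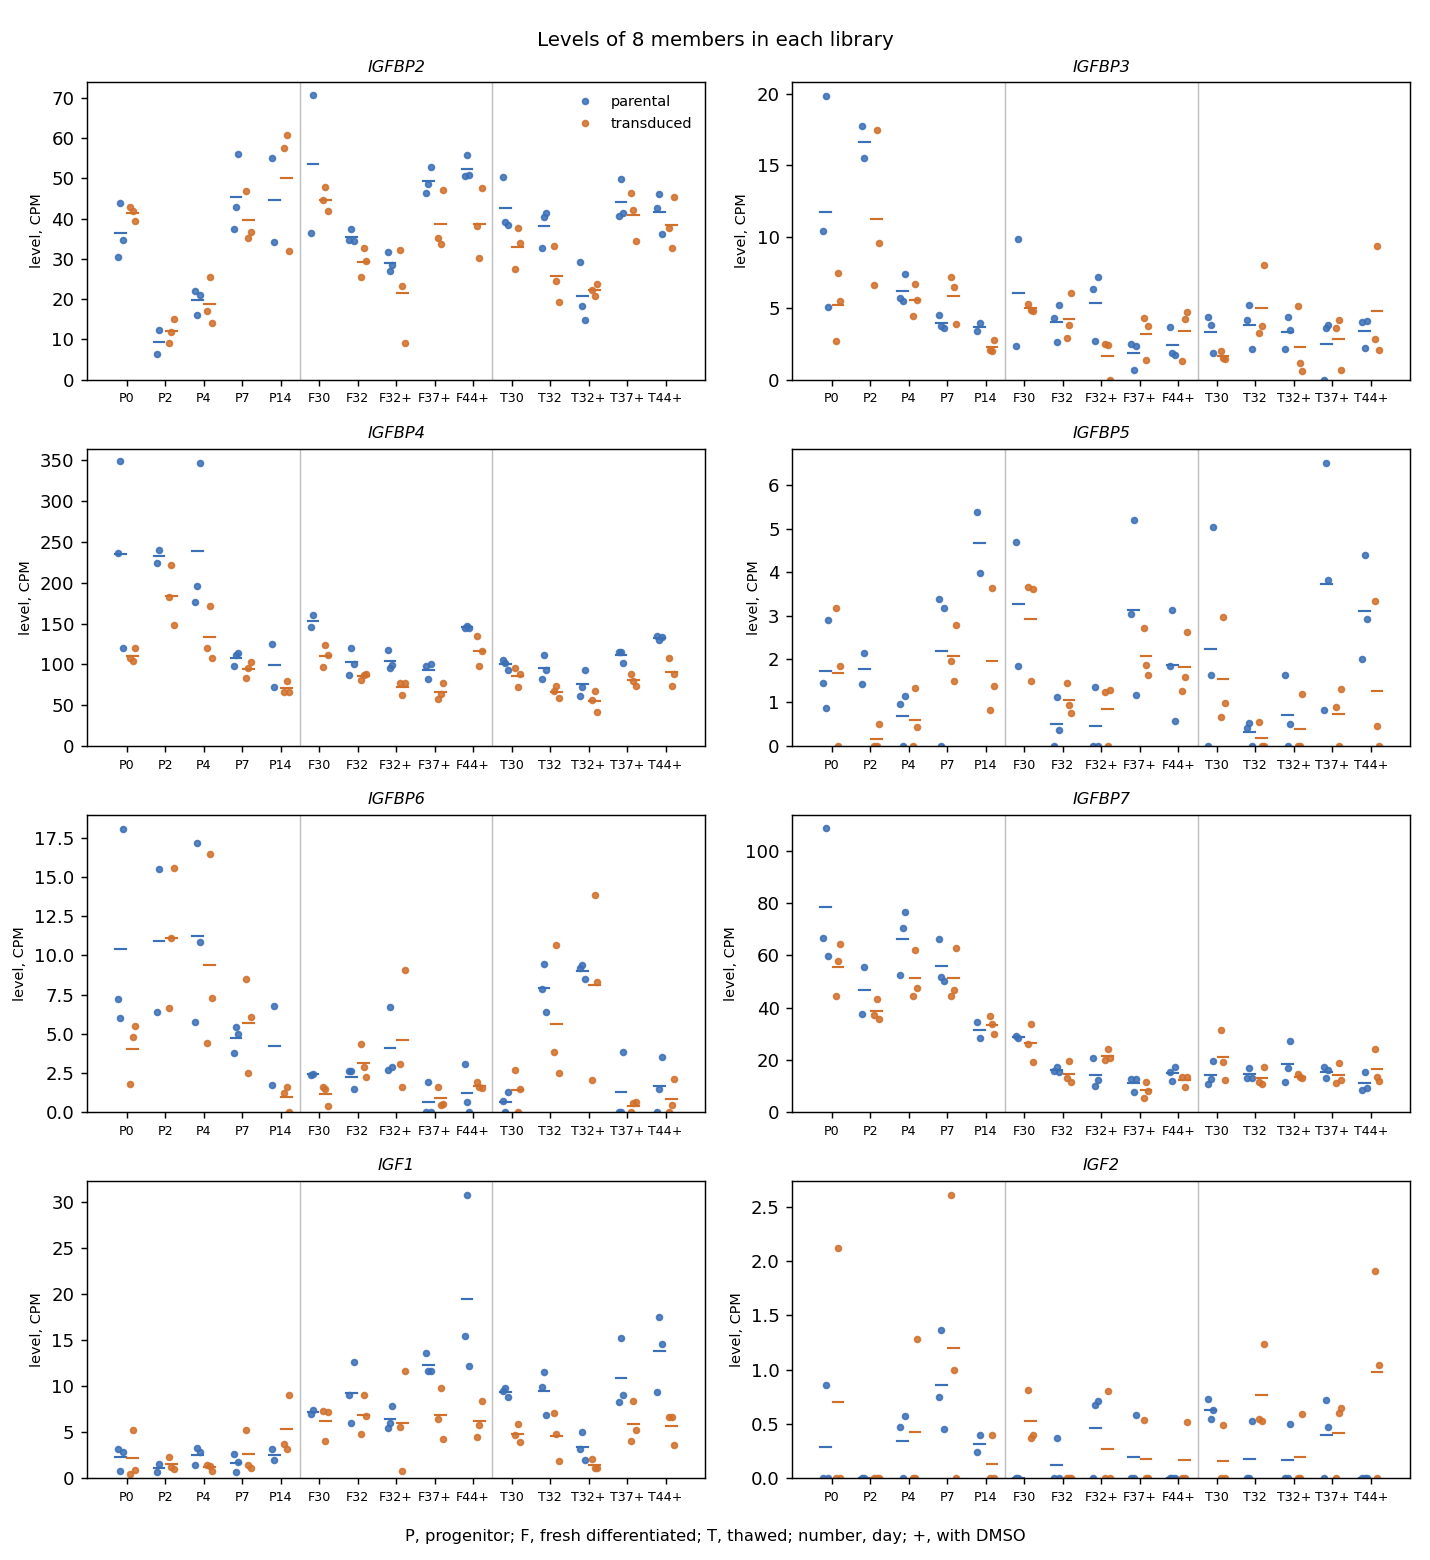
Levels of IGFBP2, IGFBP3, IGFBP4, IGFBP5, IGFBP6, IGFBP7, IGF1 and IGF2 in each library, in CPM on the vertical axes, for the 15 conditions (P progenitor, F fresh, T thawed, the number is the day, + with DMSO). Points are libraries and short lines are means of a genotype, blue for parental and orange for transduced. IGFBP2 dips at progenitor days 2 and 4 while IGFBP3 and IGFBP4 stand high at day 2, and IGFBP7 has its 5 highest means in progenitors.

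IGFBP6, which prefers IGF2 as its ligand, had its highest condition means at progenitor days 2 and 4, followed by thawed day 32 with DMSO (8.55 ± 3.78 CPM, n = 6) and progenitor day 0 (7.23 ± 5.60, n = 6). Its means were 11.1 ± 4.504 CPM (SD, n = 5) at progenitor day 2 and 10.3 ± 5.48 (n = 6) at day 4. At thawed day 30 the libraries held 0.728, 0 and 1.26 CPM in parental and 2.69, 0 and 1.48 CPM in transduced cells. At day 32 without DMSO they held 7.88, 9.44 and 6.37 CPM in parental and 3.82, 10.7 and 2.48 CPM in transduced cells. All but the lowest of these were above day 30, and the rise was 2.81 ± 0.629 (7.01-fold, edgeR adjusted p = 0.000643), with an adjusted p of 0.175 without replicate b of every group and 0.0465 without the 4 day 30 libraries.

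At thawed day 32 with DMSO IGFBP6 held 2.07 to 13.9 CPM with a median of 8.83, and at day 44 it held 0 to 3.49 CPM with a median of 0.956. That fall was −2.77 ± 0.575 (6.84-fold lower, edgeR adjusted p = 0.000185). In fresh cells the step from day 30 to day 32 was 0.65 ± 0.653 (adjusted p = 0.574), and it differed from that of thawed cells by 2.16 ± 0.971 without passing the test (edgeR adjusted p = 0.262). The genes most like IGFBP6 were FXYD5 (r = 0.922), EMP3 (0.915) and PTMA (0.904). IGFBP6 and IGF1 had r = −0.841 over the 15 conditions.

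IGFBP5, a binding protein that attaches to matrix, had few counts. In thawed cells it held 0, 1.64 and 5.05 CPM in parental and 0.673, 2.98 and 0.985 CPM in transduced cells at day 30, and 0 to 0.545 CPM at day 32 without DMSO. The fall of −2.66 ± 0.891 (edgeR adjusted p = 0.034) had an adjusted p of 0.207 without replicate c of thawed day 30, which includes the highest library, of 0.246 with replicate b of all groups left out, and of 0.435 without the 4 day 30 libraries. At the same step in fresh cells 10.8% of all genes tested did not overlap. IGFBP5 was among them, with every day 30 library (1.49 to 4.69 CPM) above every day 32 library without DMSO (0 to 1.45 CPM). The test did not call it (−1.88 ± 0.733, edgeR adjusted p = 0.0625). Its closest genes were TNFRSF11B (r = 0.881), RTN4 (0.846) and EPAS1 (0.837).

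IGFBP7, a relative with low affinity for the growth factors that is found in matrix and around vessels, had its 5 highest condition means in the progenitor conditions. At progenitor day 0 it held 44.4 to 109 CPM with a median of 62.1. The 5 libraries of day 2 held 37.7 and 55.5 CPM in parental and 37.1, 43.3 and 35.7 CPM in transduced cells, which overlapped with day 0 (log2 −0.62 ± 0.189, edgeR adjusted p = 0.00741). From day 7, with 44.3 to 66.4 CPM and a median of 51.0, to day 14, with 34.7 and 28.3 CPM in parental and 36.8, 33.9 and 29.8 CPM in transduced cells, the ranges did not overlap (−0.72 ± 0.188, edgeR adjusted p = 0.00562). The same held for 5.06% of all genes tested at this step. Fresh day 30, at 19.3 to 33.6 CPM, overlapped with progenitor day 14 and was not called against it (−0.25 ± 0.209, edgeR adjusted p = 0.448). From fresh day 30 to day 32 without DMSO, at 11.4 to 19.5 CPM, it fell by 0.83 ± 0.213 with a slight overlap (edgeR adjusted p = 0.00213). Each of these 3 calls ended without 1 or more replicate letters, with adjusted p of 0.0682 and 0.066 without a or b at day 2, 0.0689 and 0.0884 without b or c at day 14, and 0.0526 without a at fresh day 32, where it was 0.0569 without the 4 day 30 libraries. Means from fresh day 37 onward and in all thawed conditions lay between 9.73 and 17.7 CPM.

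With all libraries, thawed cells had less IGFBP7 than fresh cells at day 30 (−0.67 ± 0.216, edgeR adjusted p = 0.0213), with a median of 15.9 against 28.3 CPM and overlapping ranges. Without replicate a or b of every group this call ended (adjusted p 0.068 and 0.367), and without the 4 day 30 libraries closest to the other status the value was 0.31 ± 0.372 (adjusted p = 0.768). The genes most like IGFBP7 were FSTL1 (r = 0.937) and OLFML3 (0.933), both secreted glycoproteins, and RUNX2 (0.928), a transcription factor of bone. The 8 fibroblast and stellate cell markers, 6 of them abundant enough to be tested, had summed means of 182.9 to 381.1 CPM in the progenitor conditions and 64.88 to 129.6 CPM in the differentiated ones. COL1A2 had no count in 4 of the differentiated conditions. The markers did not all move alike. In progenitor, fresh and thawed cells mean CPM was 86.8, 25.3 and 28.6 for DCN, 70.5, 15 and 13.4 for LUM, and 68, 34.7 and 36.2 for ACTA2. COL1A1, COL1A2 and COL3A1 were low and also highest in progenitors. PDGFRB went the other way, at 1.98, 3.11 and 3.84 CPM, and THY1 was at 0.714, 0.496 and 0.734 CPM. The part of these markers in the levels of IGFBP7 was not tested. The end of IGFBP7 overlaps POLR2B on the other strand by 386 bases, and with no counting strand given some of its reads could come from that gene. POLR2B stood at 22.2 ± 5.59, 19.1 ± 4.57 and 17.9 ± 3.87 CPM (SD) in progenitor, fresh and thawed cells, with r = 0.658 to IGFBP7 over the conditions.

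With all libraries, more members were called lower than higher at the step from starting cells to the next time point in progenitors, fresh and thawed cells. In thawed cells the balance was 2 lower to 1 higher and rested on IGFBP5, whose call was lost under several settings. From progenitor day 0 to day 2, 3 of 8 members were called, all lower (IGFBP1, IGFBP2 and IGFBP7), where 30.4% of all genes tested were called. The median log2 fold change of the 8 was −0.71, against −0.08 over all genes. From fresh day 30 to day 32 without DMSO, 4 of 8 were called, all lower (IGFBP1, IGFBP2, IGFBP4 and IGFBP7), with 17.3% of genes called and a median of −0.56 against 0.01. Without the 4 day 30 libraries, in transduced cells, IGFBP1 stayed called (−3.53, adjusted p = 4.93e-06) and IGFBP2, IGFBP4 and IGFBP7 did not (0.116, 0.351 and 0.0569). In thawed cells 3 of 8 were called, IGFBP1 and IGFBP5 lower and IGFBP6 higher, with 11.8% of genes called and a median of −0.24 against 0.01. There IGFBP5 was not called without the 4 libraries. IGFBP1 was called at each of these 3 steps.

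**Figure D3:**
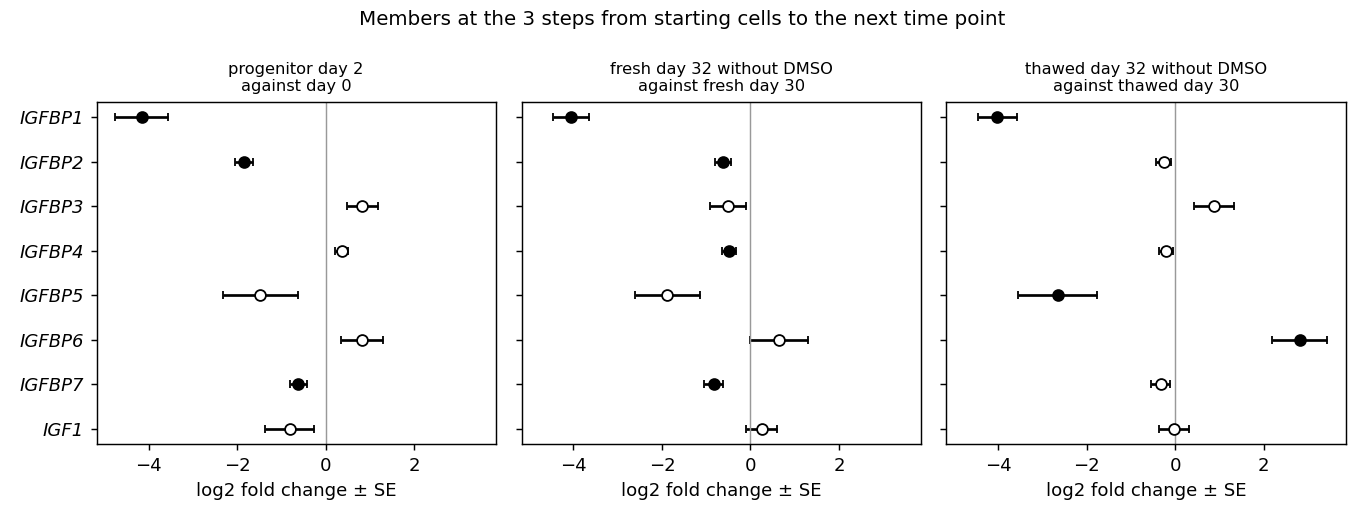
Log2 fold change (horizontal axis) with SE bars for the 8 tested members (vertical axis) from progenitor day 0 to day 2, from fresh day 30 to day 32 without DMSO, and from thawed day 30 to day 32 without DMSO. Filled points passed an adjusted p of 0.05 and open points did not. IGFBP1 lies near −4 in all 3 panels, at −4.16, −4.06 and −4.03.

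From progenitor day 2 to day 7, 3 of 8 members were called (IGFBP2 higher, IGFBP3 and IGFBP4 lower), a share near the 33.5% of genes called. From day 7 to day 14, 2 of 8 were called (IGFBP1 higher, which rests on 1 library as above, and IGFBP7 lower), with 7.18% of genes called. From progenitor day 14 to fresh day 30, 2 of 8 were called, IGFBP1 and IGFBP4, both higher, with 22.6% of genes called.

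DMSO for the last 2 days before day 32 called no member in fresh cells (edgeR; 0 with DESeq2 and 0 at an unadjusted p under 0.05), where 2.45% of genes were called. In thawed cells it called 2 of 8, IGFBP2 and IGF1, both lower, where 7.76% of genes were called. The difference between the DMSO effects was called for 0 members (0 with DESeq2, and 1, IGF1, at an unadjusted p under 0.05), where 0.12% of genes were called. From day 32 to day 44 with DMSO, 2 of 8 members were called in fresh cells, IGFBP2 and IGFBP4, both higher, where 11.5% of genes were called. In thawed cells 4 of 8 were called, IGFBP2, IGFBP4 and IGF1 higher and IGFBP6 lower, where 9.59% of genes were called and the medians were 0.65 for members and −0.02 for all genes. These later steps share the day 32 libraries with the DMSO comparisons.

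Members were called between thawed and fresh cells at day 30 and not at day 32 without DMSO or day 44. Day 32 with DMSO and day 37 were not tested for this difference. At day 32 with DMSO, mean IGF1 was 2.44 CPM in thawed and 6.23 CPM in fresh cells. Mean IGFBP6 there was 8.55 and 4.34 CPM, and the ranges overlapped for both genes. At day 30, 3 of 8 members were called, IGFBP3, IGFBP4 and IGFBP7, all lower in thawed cells, where 15.6% of genes were called. The medians were −0.64 for the members and −0.06 over all genes, and all 3 calls ended without replicate b of every group. Without the 4 day 30 libraries that lay closest to the other status, which leaves 1 transduced thawed library assumed to vary like the other groups, 0 of 8 were called. IGFBP3 was then at −1.23 (adjusted p = 0.595), IGFBP4 at −0.17 (0.861) and IGFBP7 at 0.31 (0.768), the last in the other direction. At day 32 without DMSO 0 of 8 were called (0 with DESeq2, and 1, IGFBP6, at an unadjusted p under 0.05), where 2.17% of genes were called. At day 44 with DMSO 0 of 8 were called (0 with DESeq2 and 0 at an unadjusted p under 0.05), where 0.184% of genes were called. A difference between thawed and fresh cells in the change from day 30 to day 32 was called for 0 members (0 with DESeq2), where 1.81% of genes were called. There 2 members, IGFBP3 and IGFBP6, had an unadjusted p under 0.05, so a difference is not excluded.

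Transduced cells had less IGFBP4 than parental cells in each of the 15 conditions. The log2 gap of the means ran from −0.95 at progenitor day 0 to −0.20 at progenitor day 7, and 7 of the 12532 genes tested (0.0559%) were lower in all 15. In fresh cells the transduced libraries held 56.9 to 134 CPM with a median of 86.9 (n = 15) and the parental libraries 81.8 to 161 CPM with a median of 109 (n = 14), a log2 difference of −0.42 ± 0.0951 (1.34-fold lower, edgeR adjusted p = 0.00226). In thawed cells the values were 41.6 to 108 CPM with a median of 73.8 and 60.6 to 135 CPM with a median of 102 (n = 15 each), a difference of −0.44 ± 0.0936 (1.36-fold lower, edgeR adjusted p = 0.00103).

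Within conditions the ranges of the genotypes did not overlap for IGFBP4 in 9 of 15. With so few libraries per genotype, ranges can separate by chance. The share of all genes that did so in a condition was not computed, so how unusual this count is was not tested. At thawed day 44 the parental libraries held 135, 130 and 133 CPM and the transduced libraries 108, 73.8 and 88.6 CPM. At fresh day 44 they held 145, 147 and 145 CPM against 134, 98.1 and 116 CPM, so every parental library was higher. At progenitor day 0 the parental libraries were scattered, at 236, 349 and 120 CPM, and the transduced libraries were not, at 108, 104 and 120 CPM, so the widest gap also had the widest spread. Averaged over progenitor days, the difference was −0.59 ± 0.0942 (edgeR adjusted p = 8.27e-06). Without replicate a of every group the calls ended in progenitors (−0.51, adjusted p = 0.0768) and in fresh cells (−0.42, adjusted p = 0.146). The calls in fresh and thawed cells held without the 4 day 30 libraries (adjusted p = 0.0108 and 0.0104).

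IGF1 was lower in transduced than in parental thawed cells. In thawed cells the transduced libraries held 1.16 to 8.41 CPM with a median of 4.71, and the parental libraries 1.99 to 17.6 CPM with a median of 9.33 (n = 15 each). The difference was −1.05 ± 0.234 (2.06-fold lower, edgeR adjusted p = 0.0021), with adjusted p of 0.0704 and 0.0557 without replicate b or c of every group and 0.0092 without the 4 day 30 libraries. At thawed day 30 the parental libraries held 9.47, 9.81 and 8.83 CPM and the transduced libraries 4.71, 5.95 and 3.94 CPM, and at thawed day 44 they held 9.33, 17.6 and 14.6 CPM against 6.68, 6.71 and 3.65 CPM. The genotypes did not overlap at these times or, in fresh cells, at days 37 and 44. They overlapped at the other 3 thawed and 3 fresh conditions. In progenitors they did not overlap at day 14, in the other direction, with 1.99 to 3.18 CPM in parental and 3.22 to 9.02 CPM in transduced cells. At the other progenitor days they overlapped. As for IGFBP4, the share of all genes without overlap in a condition was not computed.

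In fresh cells the IGF1 difference was −0.67 ± 0.222 (edgeR adjusted p = 0.0736). At fresh day 44 the parental libraries held 15.4, 30.7 and 12.2 CPM and the transduced libraries 4.45, 5.83 and 8.36 CPM. In progenitors the difference was 0.12 ± 0.326 (adjusted p = 0.934). The genotype difference of thawed cells was lower than that of progenitors by 1.17 ± 0.399 on the log2 scale, which did not pass the test (unadjusted p = 0.00416, edgeR adjusted p = 0.128). IGF1 was most like PLG (r = 0.967), RGPD1 (0.952) and HRG (0.950) over the conditions, and PLG and HRG encode plasma proteins of the liver.

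**Figure D4:**
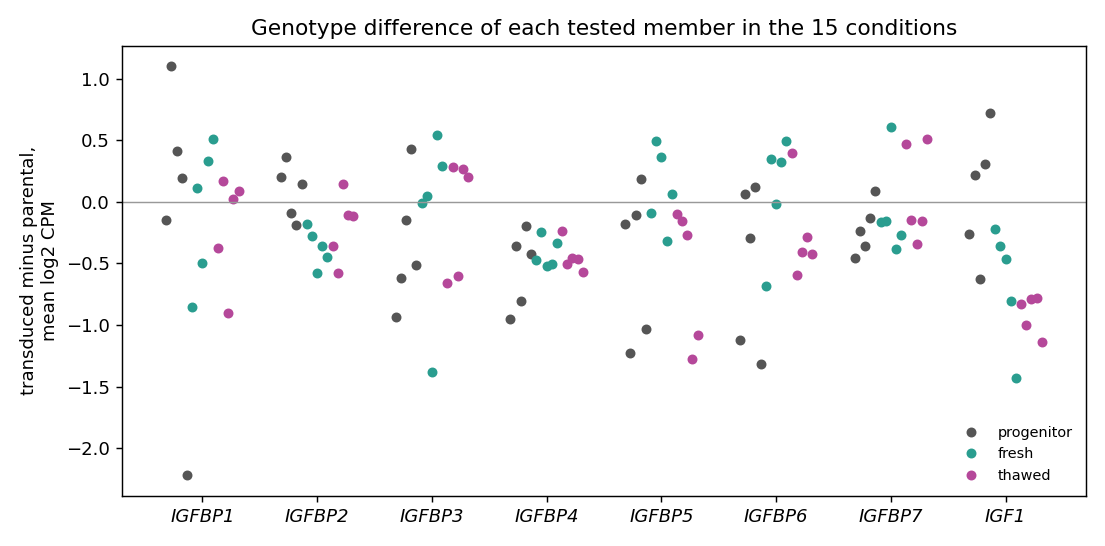
Transduced minus parental difference of mean log2 CPM (vertical axis) for the 8 tested members (horizontal axis). Each point is 1 of 15 conditions, coloured by status (progenitor, fresh or thawed). All 15 points of IGFBP4 lie below 0, and 12 of 15 points of IGF1 do.

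By genotype 1 of 8 members was called in progenitors (IGFBP4), where 1.57% of genes were called. In fresh cells 1 of 8 was called (IGFBP4), where 3.77% of genes were called, and IGFBP2 had an adjusted p of 0.066 (−0.34 ± 0.112) that passed with RLE factors and with DESeq2. In thawed cells 2 of 8 were called (IGFBP4 and IGF1), where 2.65% of genes were called, and of those genes 41.6% were higher in transduced cells, or 31.3% with RLE factors and 31.0% with DESeq2. All of these member calls were lower in transduced cells. Between fresh cells and progenitors a change of the genotype difference was called for 0 members (edgeR, and 0 with DESeq2), where 1.47% of genes were called. There 2 members, IGFBP2 and IGF1, had an unadjusted p under 0.05, so a change is not excluded. Between thawed cells and progenitors 0 were called (0 with DESeq2, and 1, IGF1, at an unadjusted p under 0.05), where 2.09% were called. A test over all 15 conditions at once called 3 of 8, where 11.8% of genes were called: IGFBP4 (adjusted p = 7.94e-07), IGF1 (0.00789) and IGFBP1 (0.0252, and 0.585 without parental progenitor day 14 replicate a). The IGF1 call in that test ended when any 1 replicate letter was left out (adjusted p 0.0659 to 0.191).

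The receptors and signalling proteins that carry the growth factor signal inward were taken as a list of 18 genes, of which 15 were tested. In this and the following lists the gene with the smallest p is named by rule, and the others were chosen after their values were seen. From progenitor day 0 to day 2, 3 of 15 were called, all lower, below the 30.4% of all genes called, with a list median of −0.41 against −0.08 over all genes: IRS2, a docking protein of the insulin and IGF1 receptors (log2 −1.47 ± 0.195, edgeR adjusted p = 3.23e-10), the adaptor GRB14 (−2.11 ± 0.537) and the adaptor SHC1 (−0.41 ± 0.149). From day 2 to day 7, 5 of 15 were called, all higher, near the 33.5% of all genes called, with IRS2 at 0.94 ± 0.195 (adjusted p = 3.39e-05). IRS2 fell again from day 30 to day 32, by 0.85 ± 0.186 in fresh and 0.84 ± 0.187 in thawed cells (edgeR adjusted p = 0.000254 and 0.000495). The fresh call ended without the 4 day 30 libraries (−0.55, adjusted p = 0.209). IGF1R, the main receptor, had condition means of 4.38 to 10.8 CPM and was called among the 15 conditions (adjusted p = 0.0136). At thawed against fresh day 30, 2 of the 15 were called, both lower, near the 15.6% of all genes called: IGF2R, which clears IGF2 from the cell surface (−1.20 ± 0.28, edgeR adjusted p = 0.00087), and PIK3R1, a regulatory subunit of PI3-kinase (−0.82 ± 0.257). Neither was called without the 4 day 30 libraries (adjusted p = 0.532 and 0.993).

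The growth hormone axis drives IGF1 in liver. Of its 7 tested genes 3 were called at progenitor day 2 against day 0, all lower, where 30.4% of all genes were called, with a list median of −0.53: CISH, a feedback inhibitor (log2 −2.46 ± 0.345, edgeR adjusted p = 2.21e-09), the receptor GHR (−1.60 ± 0.346) and SOCS3 (−1.69 ± 0.623). By day 7 CISH and GHR had risen (2.21 ± 0.344 and 2.05 ± 0.327) and SOCS2 had fallen (−2.23 ± 0.501), where 33.5% of all genes were called. Of the 7, GHR alone was called from day 30 to day 32, at −1.18 ± 0.253 in fresh and −0.81 ± 0.278 in thawed cells (edgeR adjusted p = 0.000171 and 0.0394). That count is near the 17.3% and 11.8% of all genes called at this step in fresh and thawed cells.

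Liver genes that respond to insulin and FOXO1, or carry out that control, were listed because IGFBP1 is under the same control. Of 8 tested, 4 were called at progenitor day 2 against day 0, all lower, where 30.4% of all genes were called, with a list median of −0.73: FOXO1 (log2 −1.85 ± 0.217, edgeR adjusted p = 2.99e-12), FOXO3, PPARGC1A and PDK4, a kinase that limits glucose oxidation and went from 17.1 ± 5.60 to 0.0794 ± 0.178 CPM. From day 2 to day 7, 5 of 8 were called, all higher, where 33.5% of all genes were called. From fresh day 30 to day 32, 6 of 8 were called, all lower, where 17.3% of all genes were called, with a list median of −0.97 against 0.01 over all genes, among them PDK4 (−3.68 ± 0.365) and G6PC, the glucose-6-phosphatase of glucose output (−1.99 ± 0.242). The calls of PDK4 and G6PC held without the 4 day 30 libraries (adjusted p = 4.69e-06 and 5.53e-06), and those of FOXO1, FOXO3, PCK1 and SREBF1 ended. In thawed cells the same step called 2 of 8, where 11.8% of genes were called, PDK4 (−2.87 ± 0.367) and G6PC (−1.81 ± 0.252), both lower. From day 32 to day 44 with DMSO 3 of 8 were called in fresh and 3 of 8 in thawed cells, where 11.5% and 9.59% of genes were called, all higher, with G6PC having the smallest p (1.51 ± 0.232 and 2.17 ± 0.233).

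Of the low-affinity relatives, the CCN proteins that carry a domain like that of the binding proteins, 3 were tested. CCN1 and CCN2 fell from day 30 to day 32 by 3.44 ± 0.234 and 2.57 ± 0.242 in fresh and by 3.33 ± 0.244 and 3.37 ± 0.265 in thawed cells (log2, edgeR adjusted p at most 8.88e-13). They were also lower at progenitor day 2 than at day 0 (−1.95 ± 0.218 and −2.02 ± 0.249) and higher at fresh day 30 than at progenitor day 14 (2.28 ± 0.234 and 1.56 ± 0.246). Of the proteases that cut binding proteins and their inhibitors 5 were tested. At progenitor day 2 against day 0 the inhibitor STC1 was lower (−1.85 ± 0.414) and the protease ADAM12 was higher (1.57 ± 0.394), with ADAM9 higher and HTRA1 lower. ADAM12 fell by 1.57 ± 0.38 from day 2 to day 7. Of the IGF2 locus and the proteins that bind its RNA 2 were tested, and H19, the untranslated RNA beside IGF2, was lower at progenitor day 2 (−1.23 ± 0.336, edgeR adjusted p = 0.00225).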

How the data were processed

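BRB-seq libraries of HepaRG cells were analysed from the deposited table of counts per gene, whole numbers that the authors did not normalise, as the values show. Per the submitters' processing notes, BWA and the builds hg38 and mm10 were used, without a stated role for mm10. The counting rule, the use of molecular identifiers and the strand are not given in the sources used here, so intervals and tests cover the spread between libraries only. Sample groups came from the labels. Libraries under 0.25 of the median total (3) were left out of the tests and means. Levels are CPM with TMM factors. Genes passing edgeR's expression filter over the 30 groups (12532) were fitted together with the robust quasi-likelihood test (edgeR 4.0.16, R 4.3.3), and p-values were adjusted by Benjamini-Hochberg over all of them in each of 22 comparisons, with a threshold of 0.05. The SE of a log2 fold change is its size divided by the square root of F, which is unstable for very small changes. The procedure was tested on simulated data. Alternatives were RLE factors, no filter, a mean count of at least 10, a replicate block, leaving out each replicate letter or named libraries, all 90 libraries, a fit to the statuses compared, and DESeq2 1.42.0.

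The members and the gene lists were chosen with earlier results of these data known. Genes named for likeness were the 3 with the highest Pearson r to a member over the 15 condition means of log2 CPM, among genes whose mean reached 20 CPM; 1 such gene is not reported here. Of each related list the gene with the smallest p in a comparison is named. Marker lists were hepatocyte, biliary, proliferation, fibroblast and stellate, endothelial and macrophage genes. Summed CPM ran from 2778 to 82990 for hepatocyte, 316.9 to 624.3 for biliary, 59.22 to 1064 for proliferation, 4.722 to 30.99 for endothelial and 15.41 to 82.47 for macrophage markers over the condition means. Promoter windows came from RefSeq (GRCh38.p14), which matched 7 of 10 members. Protein sequences were not used here.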

Additional observations from a re-analysis of the deposited data

Results flagged for a closer look

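IGF2R, which encodes the receptor that binds IGF2 and mannose 6-phosphate, was flagged because its change from day 30 to day 32 without DMSO differed between thawed and fresh cells. In fresh cells it went from 19.6 ± 8.17 CPM (SD, n = 5) to 12.1 ± 3.02 CPM (n = 6), and in thawed cells from 8.51 ± 1.25 to 12.9 ± 3.57 CPM (n = 6 each). The log2 difference between the changes was 1.31 ± 0.381 (SE; edgeR adjusted p = 0.0486). Without the 4 day 30 libraries that lay closest to the other status, in transduced cells alone, it was 1.09 ± 0.679 (edgeR adjusted p = 0.829).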

How the results depend on the processing

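Of 176 member values, 43 were called, of which 21 stayed called under all of the 13 alternatives that gave them a value (11 planned and 2 chosen after seeing the data, leaving out thawed day 30 replicate c or the 4 day 30 libraries closest to the other status) and 22 were lost under at least 1. Of the 133 not called, 9 passed under at least 1, and 1 value reversed, IGFBP7 in thawed against fresh cells at day 30, at 0.309 without those 4 libraries. The losses were 15, 13 and 9 when replicate a, b or c was left out of every group, where fewer libraries remain. Replicate letters do not pair libraries (median correlation of deviations −0.00104 for the same letter and −0.000435 for others, with 1 of 42 pairs of the same condition over 0.1), no member call changed under the replicate block, and counts of genes called were 0.872 to 1.04 times those reported. RLE factors and DESeq2 moved the median of all genes by −0.03 to 0.0208.

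Counts of genes called, as reported and then lowest to highest over the 5 settings that leave out a replicate letter or named libraries, were as follows. Progenitor day 2 against day 0 had 3808 and 2377 to 3831, day 14 against day 7 had 900 and 487 to 897, and fresh day 30 against progenitor day 14 had 2836 and 1523 to 2845. Day 32 against day 30 had 2173 and 901 to 2151 in fresh cells and 1484 and 879 to 1440 in thawed cells. DMSO had 307 and 153 to 330 in fresh cells and 973 and 445 to 969 in thawed cells. Day 44 against day 32 had 1438 and 919 to 1467 in fresh cells and 1202 and 770 to 1222 in thawed cells. Thawed against fresh had 1949 and 554 to 1927 at day 30, 272 and 15 to 245 at day 32, and 23 and 7 to 30 at day 44. Genotype had 197 and 71 to 177 in progenitors, 473 and 154 to 480 in fresh cells, 332 and 141 to 343 in thawed cells, and 1473 and 286 to 1316 over all conditions. The genotype difference against progenitors had 184 and 60 to 187 in fresh cells and 262 and 87 to 245 in thawed cells. Thawed minus fresh had 15 and 3 to 14 for DMSO and 227 and 15 to 262 for day 32 against day 30.

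Members called, in the same form, were 2 and 0 to 2 for progenitor day 14, 2 and 1 to 2 for fresh day 30, 4 and 2 to 4 for fresh day 32, 3 and 1 to 3 for thawed day 32, 2 and 0 to 2 for DMSO in thawed cells, 2 and 1 to 2 for fresh day 44, and 3 and 0 to 4 for thawed against fresh at day 30. By genotype they were 1 and 0 to 1 in progenitors and in fresh cells, 2 and 1 to 2 in thawed cells, and 3 and 1 to 3 over all conditions.

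With the fit to the statuses compared, genes called were 584 for progenitor day 14 against day 7, 501 for DMSO in fresh cells, 532 and 83 for thawed against fresh at days 32 and 44, 53 for genotype in progenitors, and 68 and 523 for the 2 thawed minus fresh differences. Members called were then 1 for progenitor day 14, 5 for thawed against fresh at day 30 and 3 for genotype in fresh cells. With all 90 libraries, genes called were 110 and 13 for thawed against fresh at days 32 and 44, and 2 and 117 for the thawed minus fresh differences. With DESeq2 these were 477, 45, 34 and 398. Without a filter thawed against fresh at day 44 had 41 genes, and members called were 5 for progenitor day 7 and 1 for DMSO in thawed cells. With a mean count of at least 10, which tests fewer members, 1 member was called for thawed day 32 and 5 among the conditions. Without the 4 day 30 libraries, genes called were 849 and 924 for day 32 against day 30 in fresh and thawed cells, 367 for thawed against fresh at day 30 and 1 for the thawed minus fresh difference of day 32 against day 30. Members called were then 1 for fresh day 32 and 0 for thawed against fresh at day 30. Genotype in fresh cells called 2 members with RLE factors, with that minimum and with DESeq2. Apart from fewer libraries or genes, the cause was not tested.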
